A study of Mus musculus with 4 samples.

Results

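The Hox cluster genes were examined for N6-methyladenosine (m6A) in mouse c-Kit+ foetal liver cells. All GENCODE M21 protein-coding genes named Hoxa, Hoxb, Hoxc or Hoxd with a number were taken, which gave 39 of 21938 protein-coding genes. There were 11 genes in the HoxA cluster, 10 in HoxB, 9 in HoxC and 9 in HoxD. A gene was counted as having a peak when the summit of an m6A peak, its highest point, lay in an exon of that gene. The rule used gene names alone.

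The data were m6A-seq (meRIP-seq), in which an antibody to m6A captures modified pieces of fragmented RNA for sequencing. The 4 samples were 2 replicates of the immunoprecipitated RNA (IP) and 2 of the input RNA, all of C57BL/6 background and of foetal liver cells enriched for Kit on magnetic beads (MACS). The labels name total RNA for the IP samples and polyA RNA for the input samples. Per the study's methods the cells were Ythdf2 CTL controls, which carry Ythdf2 fl/fl alleles without Vav-iCre. The floxed allele is also a reporter, so the YTHDF2 reader protein of all samples carries a GFP tag. The embryonic stage and the number of embryos behind each replicate are not given in the sources used here. The processed files were 1 list of peaks per IP replicate, with 15635 and 14872 peaks, of which 12710 and 12204 had a summit in an exon. With a single group of 2 IP samples, no contrast between conditions could be tested, and all values below describe these libraries.

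Hox genes encode homeodomain transcription factors that pattern the body axis, and members of the A and B clusters are also active in blood stem and progenitor cells. They lie in 4 clusters that arose by duplication, so that genes at the same place in different clusters form paralog groups with closely related homeoboxes, the stretch that encodes the DNA-binding homeodomain. m6A is written on messenger RNA mostly at adenosines in a short context of which GGAC is the best known form, and the reader YTHDF2 binds such RNA and promotes its decay.

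Few Hox transcripts had a peak. In replicate 1, a summit lay in an exon of 2 of the 39 genes (5.13%, exact 95% binomial interval 0.627 to 17.3), against 34.5% of all protein-coding genes. In replicate 2, it did so in 3 genes (7.69%, interval 1.62 to 20.9), against 33.5%. The genes were Hoxa3 and Hoxa9 in both replicates and Hoxa7 in replicate 2. Both replicates thus shared 2 Hox genes, or 5.13%, where the share over all protein-coding genes was 30.9%. In either replicate there were 3, or 7.69%, where it was 37.1%. The intervals cover counting error only, and the Hox genes of a cluster are not independent of each other. No test of the difference between the Hox genes and all genes was made.

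All peaks of Hox transcripts were in the HoxA cluster. The 28 genes of HoxB, HoxC and HoxD had no peak in either replicate, and no peak lay anywhere in the 174 kb of HoxB (chromosome 11), the 116 kb of HoxC (chromosome 15) or the 96.8 kb of HoxD (chromosome 2). In the 105 kb of HoxA (chromosome 6) each replicate had 4 peaks. These were 3 in Hox exons and 1 outside them in replicate 1, and 4 in Hox exons in replicate 2. The other annotated genes that lie within the clusters, 20 in HoxA, 9 in HoxB, 7 in HoxC and 10 in HoxD, had no summit in an exon either. For HoxB, HoxC and HoxD this follows from the absence of any peak there. The share over all genes of such kinds was not computed, so the count is not a result about them. Among these other genes are antisense transcripts and the microRNA genes that are interspersed with the Hox genes. The peak lists carry no strand, and the exons under the 7 Hox summits belonged to no other gene in either the basic or the comprehensive transcript set.

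**Figure D1:**
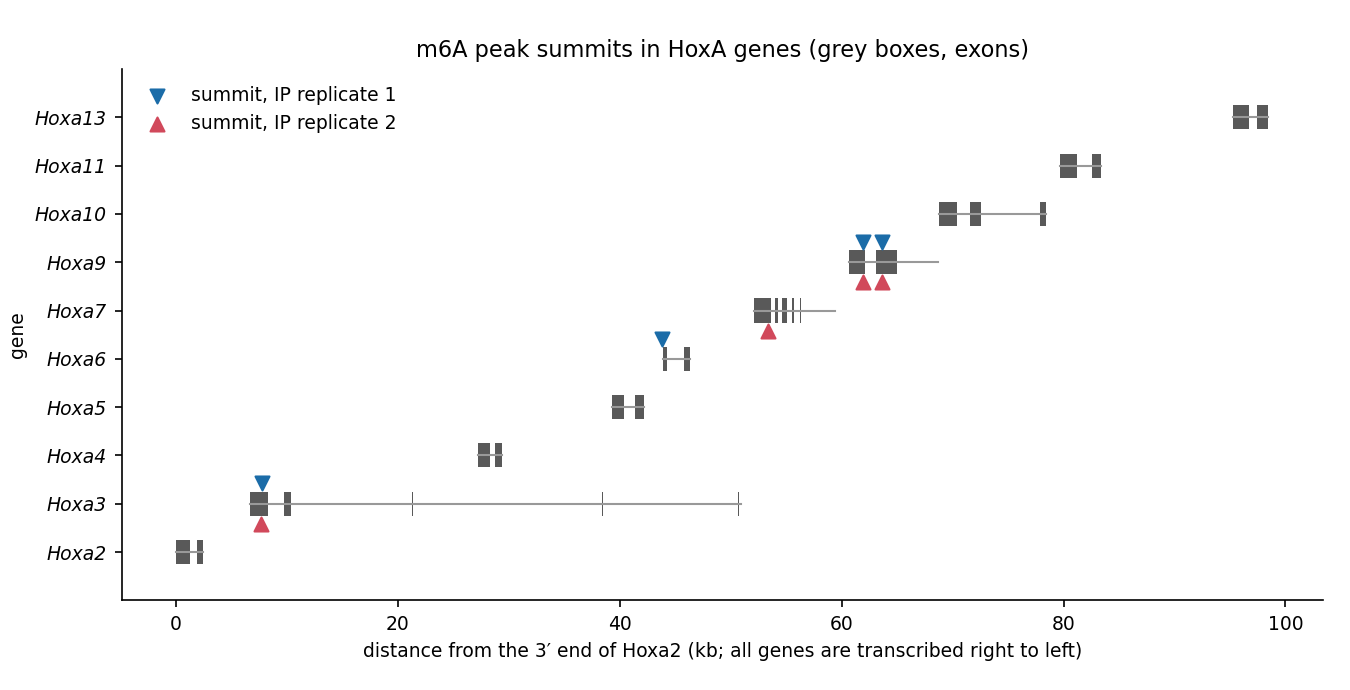
Exons (grey boxes) of HoxA genes are drawn by distance in kb from the 3′ end of Hoxa2, with the m6A summits of IP replicate 1 (blue, above) and replicate 2 (red, below). Hoxa3 and Hoxa9 have summits in both replicates at the same exons, Hoxa7 has 1 in replicate 2, and the replicate 1 summit near Hoxa6 lies 79 nt past the annotated end of that gene.

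The genes without a summit were named by cluster. In HoxA they included Hoxa2, Hoxa4, Hoxa5, Hoxa6, Hoxa10, Hoxa11 and Hoxa13. In HoxB they were Hoxb1, Hoxb2, Hoxb3, Hoxb4, Hoxb5, Hoxb6, Hoxb7, Hoxb8, Hoxb9 and Hoxb13. In HoxC they were Hoxc4, Hoxc5, Hoxc6, Hoxc8, Hoxc9, Hoxc10, Hoxc11, Hoxc12 and Hoxc13. In HoxD they were Hoxd1, Hoxd3, Hoxd4, Hoxd8, Hoxd9, Hoxd10, Hoxd11, Hoxd12 and Hoxd13. Absence of a peak can mean that m6A is missing or that too few reads covered the transcript, and expression was not measured in the files analysed here. In bulk RNA, fewer cells that express a gene and less RNA per cell cannot be told apart.

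Stretches of coding sequence under the Hoxa9 and Hoxa3 summits are shown because they hold candidate m6A sites of these genes. Each is the sense strand of the reference, 5′ to 3′, with GGAC in capitals. The genes lie on the − strand of chromosome 6, so coordinates (GRCm38) fall along each sequence. The Hoxa9 start is chr6:52225976-52226104 and begins with the start codon. The Hoxa3 stretch is chr6:52169994-52170214.
Hoxa9 start: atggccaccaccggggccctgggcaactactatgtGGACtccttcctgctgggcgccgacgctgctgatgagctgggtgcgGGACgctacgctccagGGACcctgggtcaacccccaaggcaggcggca
Hoxa3: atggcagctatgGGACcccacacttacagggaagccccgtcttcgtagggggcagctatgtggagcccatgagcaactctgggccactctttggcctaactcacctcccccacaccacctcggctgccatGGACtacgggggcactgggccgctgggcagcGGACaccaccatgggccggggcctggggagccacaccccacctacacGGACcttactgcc

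Hoxa9 (chr6:52223100-52231089), a factor central to the self-renewal of blood progenitors and a frequent driver of leukaemia, had 2 peaks in each replicate, 1 at each end of its coding sequence. The end peak spanned 52224185 to 52224543 in replicate 1 and 52224157 to 52224578 in replicate 2, in exon 2 of 2. Fold enrichment of IP over background, as computed by MACS2, was 3.91 and 3.19 there (mean 3.55 ± 0.505, SD, n = 2). These folds rested on 78 IP reads over a background of 19.2 reads in replicate 1, and on 56 over 16 in replicate 2. The summits were 4 nt apart, at 52224301 and 52224297, 55 and 51 nt before the stop codon. Both summits were inside the homeobox.

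The start peak of Hoxa9 spanned 52225977 to 52226198 in replicate 1 and 52225989 to 52226191 in replicate 2, in exon 1 of 2. Fold enrichment was 4.08 and 3.05 (mean 3.57 ± 0.731, SD, n = 2), on 53 IP reads over 12.2 and 47 over 14. The summits were 18 nt apart and lay 60 and 78 nt past the first base of the start codon. Both Hoxa9 peaks were thus near the codon that bounds the coding sequence, and the mean folds of the peaks differed by less than the spread between replicates. In each replicate the 95% Poisson intervals of the start and end peaks overlapped, at 3.08 to 5.32 and 3.10 to 4.86 in replicate 1, and at 2.26 to 4.03 and 2.43 to 4.13 in replicate 2.

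Hoxa3 (chr6:52169062-52213336), best known for its part in patterning the pharyngeal region, had 1 peak per replicate in the coding part of exon 5 of 5. It spanned 52170050 to 52170346 in replicate 1 and 52170003 to 52170472 in replicate 2. Its fold enrichment was the highest of the Hox exonic peaks, at 9.19 and 7.64 (mean 8.41 ± 1.1, SD, n = 2), but it rested on 13 and 15 IP reads over a background of 0.524 and 1 read. The Poisson interval of the fold was 5.20 to 15.2 in replicate 1 and 4.49 to 12.3 in replicate 2. The 13 reads ranked at the 5.63 percentile of all exonic peaks of replicate 1, and the fold at the 93.8 percentile. The summits were 61 nt apart, 365 and 426 nt past the homeobox, and 212 and 151 nt before the stop codon. In contrast to the Hoxa9 end peak, the Hoxa3 peak lay wholly outside the homeobox.

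Hoxa7 (chr6:52214491-52221854), a central member of the cluster that is also co-activated with Hoxa9 in leukaemia with rearranged Kmt2a, had a peak in replicate 2 only. It spanned 52215663 to 52215878 with 4.58-fold enrichment (Poisson interval 2.97 to 6.77), on 23 IP reads over 4. The summit was in exon 2 of 2, 27 nt before the stop codon and 97 nt past the homeobox. Its −log10 q was 6.69, at the 15.4 percentile of exonic peaks of replicate 2, and replicate 1 had no peak there. Whether the replicates differ at Hoxa7 was not tested.

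A peak of replicate 1 lay just outside the rule. At Hoxa6 (chr6:52206288-52208722), the neighbour of Hoxa7, a peak spanned 52206040 to 52206543 with 7.47-fold enrichment on 13 IP reads over 0.874, and its summit at 52206209 was 79 nt past the GENCODE 3′ end. Of this peak 256 nt overlapped exon 2. In the RefSeq annotation of the same build the last exon of Hoxa6 reaches 1430 nt further, from 52204858 to 52206624, and holds the summit in its 3′ UTR. With RefSeq exons, an alternative chosen after the data were seen, 4 of 39 Hox genes (10.3%) had a summit in either replicate, against 37.6% of all protein-coding genes. Replicate 2 had no peak at Hoxa6. The nearest GGAC on the sense strand had its A at 52206163, 46 nt downstream of the summit and past the GENCODE end. It is shown with the bases around it because it is the candidate site of a transcript end that GENCODE does not include (chr6:52206149-52206178, − strand).
Hoxa6: aacgtcagctgtgGGACagacgcactgtac

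The recurring Hox peaks were set beside their counterparts. The 7 Hox exonic peaks over both replicates count each recurring peak once per replicate. Of these 7, 6 overlapped a peak of the other replicate (85.7%), with 84.2% and 86.8% among all exonic peaks. Fold enrichment was lower in replicate 2 at all 3 recurring peaks, with log2 differences of −0.27 at Hoxa3, −0.29 at the Hoxa9 end and −0.42 at the Hoxa9 start. Over 9766 one-to-one pairs of exonic peaks this difference had a median of 0.01 and an SD of 0.46, so each Hox difference was smaller than the spread over all pairs. The median summit distance of those pairs was 16 nt, below which lay the Hoxa9 end peak (4 nt) and above which lay the Hoxa9 start peak (18 nt) and the Hoxa3 peak (61 nt).

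**Figure D2:**
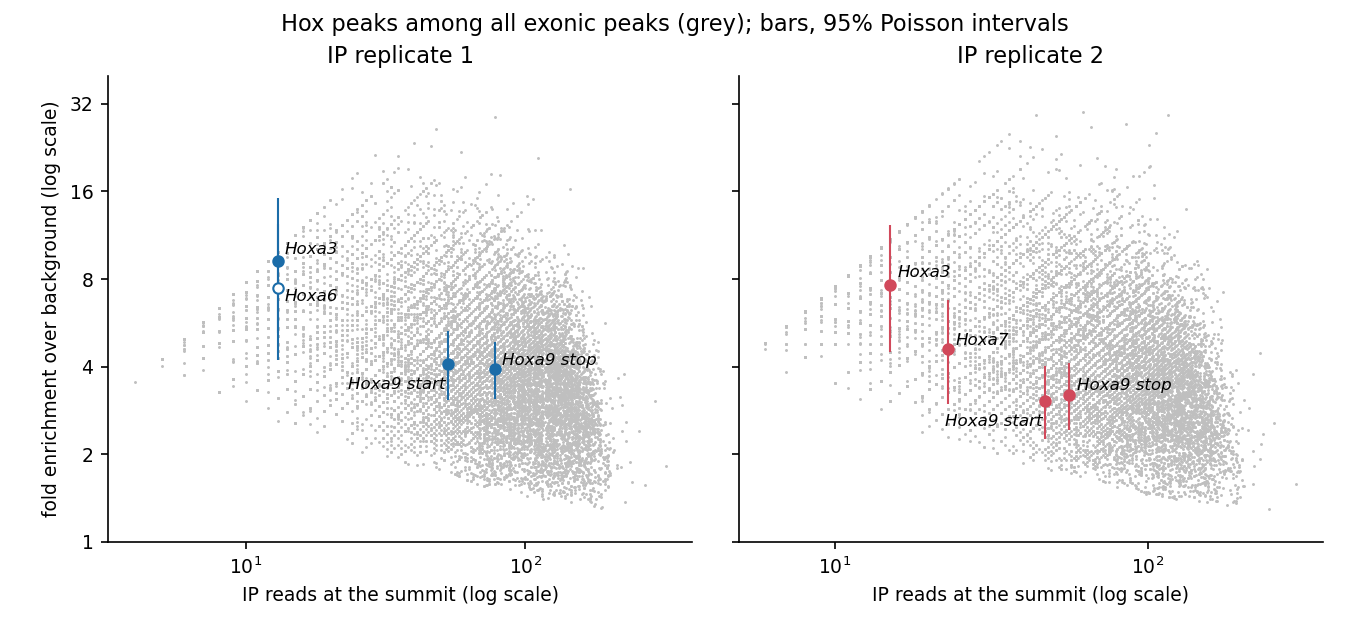
Fold enrichment is plotted against the IP reads at the summit, both on log scales, for the exonic peaks of each replicate (grey) and for the Hox peaks (coloured; bars, 95% Poisson intervals; the open circle is the Hoxa6 peak, whose summit is outside the GENCODE exons). Hoxa3 sits at 13 and 15 reads with a high fold, and the Hoxa9 peaks (start, and stop for that at the end of the coding sequence) sit at 47 to 78 reads with folds of 3.05 to 4.08.

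The median fold of the Hox exonic peaks was 4.08 in replicate 1 and 3.89 in replicate 2, beside 4.18 and 4.39 over all exonic peaks. Peaks with as few reads as Hoxa3 were uncommon but not absent. Exonic peaks had a median of 68 and 66 IP reads, and the Hoxa3 reads ranked at their 5.63 and 5.73 percentiles. Over all peaks, exonic or not, the 5th percentile was 10 and 12 reads, and the fewest reads were 4 and 6. Among the Hox exonic peaks, the Hoxa9 end peak of replicate 1 was above the median, and the peaks of Hoxa3 and Hoxa7 had at most 23 reads.

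The positions on the transcripts were set beside those of all summits. Of the 7 Hox summits, 4 (57.1%) lay within 200 nt of the stop codon, 2 within 200 nt of the start codon and 1 (14.3%) in the rest of the coding sequence. Since recurring peaks count once per replicate, these are fewer than 7 separate sites. Over all summits placed on a transcript, 30.7% and 29.8% were at the stop codon, 14.7% and 15.4% at the start codon and 34.0% and 33.8% in the rest of the coding sequence. The Hoxa3 summits fell on either side of the 200 nt border, at 212 nt in replicate 1 and 151 nt in replicate 2. No Hox summit lay in a 3′ UTR of the GENCODE transcripts. Of all placed summits, 17.2% and 17.5% were in a 3′ UTR more than 200 nt past the stop codon. Summits in a 3′ UTR nearer to it were counted at the stop codon, so the whole 3′ UTR share is not given by these values. Every Hox summit was in coding sequence. The share of all placed summits in the whole coding sequence was not computed, so this cannot be called particular to Hox genes.

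**Figure D3:**
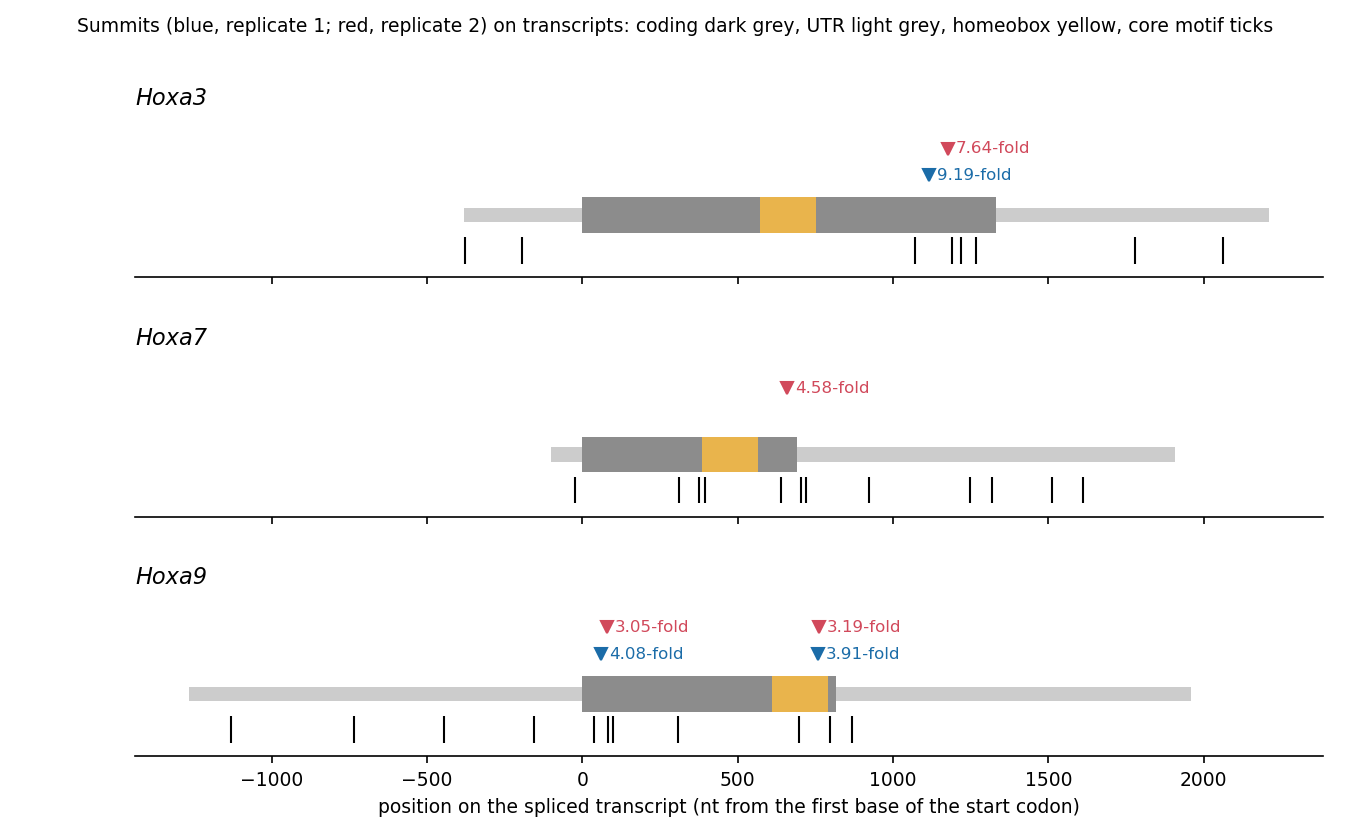
The spliced transcripts of Hoxa3, Hoxa7 and Hoxa9 are drawn in nt from the first base of the start codon, with UTRs (light grey), coding sequence (dark grey), homeobox (yellow), core motif sites (black ticks), and summits of replicate 1 (blue) and replicate 2 (red) with their fold enrichment. The Hoxa9 summits sit at both ends of the coding sequence, and those of Hoxa3 and Hoxa7 sit between the homeobox and the stop codon.

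The spliced transcripts were searched for GGAC in sense orientation. The motif lay within 50 nt of all 7 Hox summits, beside 57.0% and 56.7% of all placed summits. The broader consensus DRACH, which GGAC followed by A, C or T fulfils, was near all 7 too and near 93.9% of all summits in each replicate. At the Hoxa9 start the A of the nearest GGAC was 23 nt from the replicate 1 summit, with 1 site on each side (52226067 and 52226021), and 5 nt from the replicate 2 summit. Another site there, at 52226005, was 39 and 21 nt downstream. The site at 52226021 is followed by G and so does not fulfil DRACH, while those at 52226067 and 52226005 do.

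At the Hoxa9 end, the nearest GGAC was 38 and 34 nt downstream of the summits, and another coding site in that peak was in the homeobox, 61 and 65 nt upstream of the summits. In Hoxa3 the nearest site was at 52170200, 46 nt upstream, in replicate 1, and at 52170082, 11 nt downstream, in replicate 2. In Hoxa7 it was 20 nt upstream of the summit, but this site is followed by G and does not fulfil DRACH. The next GGAC of Hoxa7, which does, was 45 nt downstream. A match describes the sequence and does not locate the modified base, which peaks of this width cannot resolve.

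Hox transcripts without a peak also carried the motif. All 39 chosen transcripts held GGAC, from 2 in Hoxa13 to 15 in Hoxb6 with a median of 7, beside a median of 10 over all protein-coding genes. Of 309 GGAC in the Hox transcripts, 10 lay in a peak in replicate 1 and 13 in replicate 2, with 9 in both. The same share over all protein-coding transcripts was not computed, so these counts cannot be called low or high. In Hoxa9, 6 of 11 sites were under a peak in each replicate, in Hoxa3 3 and 4 of 8, and in Hoxa7 0 and 3 of 12. The remaining site of replicate 1 was in Hoxa6, under the part of its peak that overlaps exon 2. The 14 sites of Hoxd3, Hoxd4, Hoxd9, Hoxd13 and Hoxb13 each had none under a peak. GGAC per kb had a median of 3.50 over the Hox genes, with Hoxa9 at 3.41, Hoxa3 at 3.09 and Hoxa7 at 5.97, and 4 over all protein-coding genes.

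Hox transcripts have few exons. The median was 2 exons, as in 32 of the 39 genes, and 7 over all protein-coding genes. The longest exon had a median of 1240 nt, close to the 1188 nt over all genes. It reached at least 400 nt in all 39, and the share of all genes that do so was not computed. Spliced length had a median of 2086 nt, ranging from 874 nt in Hoxa6 to 3226 nt in Hoxa9, against 2544 nt over all genes. Hoxa9 was thus the longest chosen Hox transcript. GC content had a median of 53.7% in Hox transcripts and 49.4% over all. The homeobox was found in all 39 and lay in the last exon in each.

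The homeobox motif of Hoxa9 was compared across the family, since paralogs share most of this stretch. GGAC was present in 19 of 39 homeoboxes. The site at nt 86 was shared by 7 genes, namely all 4 members of group 9 (Hoxa9, Hoxb9, Hoxc9 and Hoxd9) and Hoxa13, Hoxb13 and Hoxd13 of group 13. A further site at nt 16 was shared by 5 genes of groups 4 and 5, namely Hoxa5, Hoxb4, Hoxb5, Hoxc4 and Hoxd4. Of the 7 genes with the site at nt 86, only Hoxa9 had a peak over it. The bases 71 to 100 of the homeobox in 4 genes without a peak show how the same motif stands in related surroundings, on the sense strand at chr11:96274729-96274758 (+, Hoxb9), chr15:102984000-102984029 (+, Hoxc9), chr2:74699285-74699314 (+, Hoxd9) and chr6:52259008-52259037 (−, Hoxa13).
Hoxb9: tgtacctcaccagGGACcgcaggcatgaag
Hoxc9: tgtatttaaccagGGACcgtcggtacgagg
Hoxd9: tgtacctcacccgGGACcggcgctacgagg
Hoxa13: aattcattaccaaGGACaaacggaggagga

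Over the whole homeobox of 180 nt, identity with Hoxa9 was 81.7% for Hoxb9, 82.8% for Hoxc9 and 82.8% for Hoxd9. The last 30 nt of the coding sequence hold the GGAC nearest to the Hoxa9 end summits, and none of the other group 9 genes has GGAC there. Those genes had no summit in any exon, and whether the motif has a part in this was not tested.

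**Figure D4:**
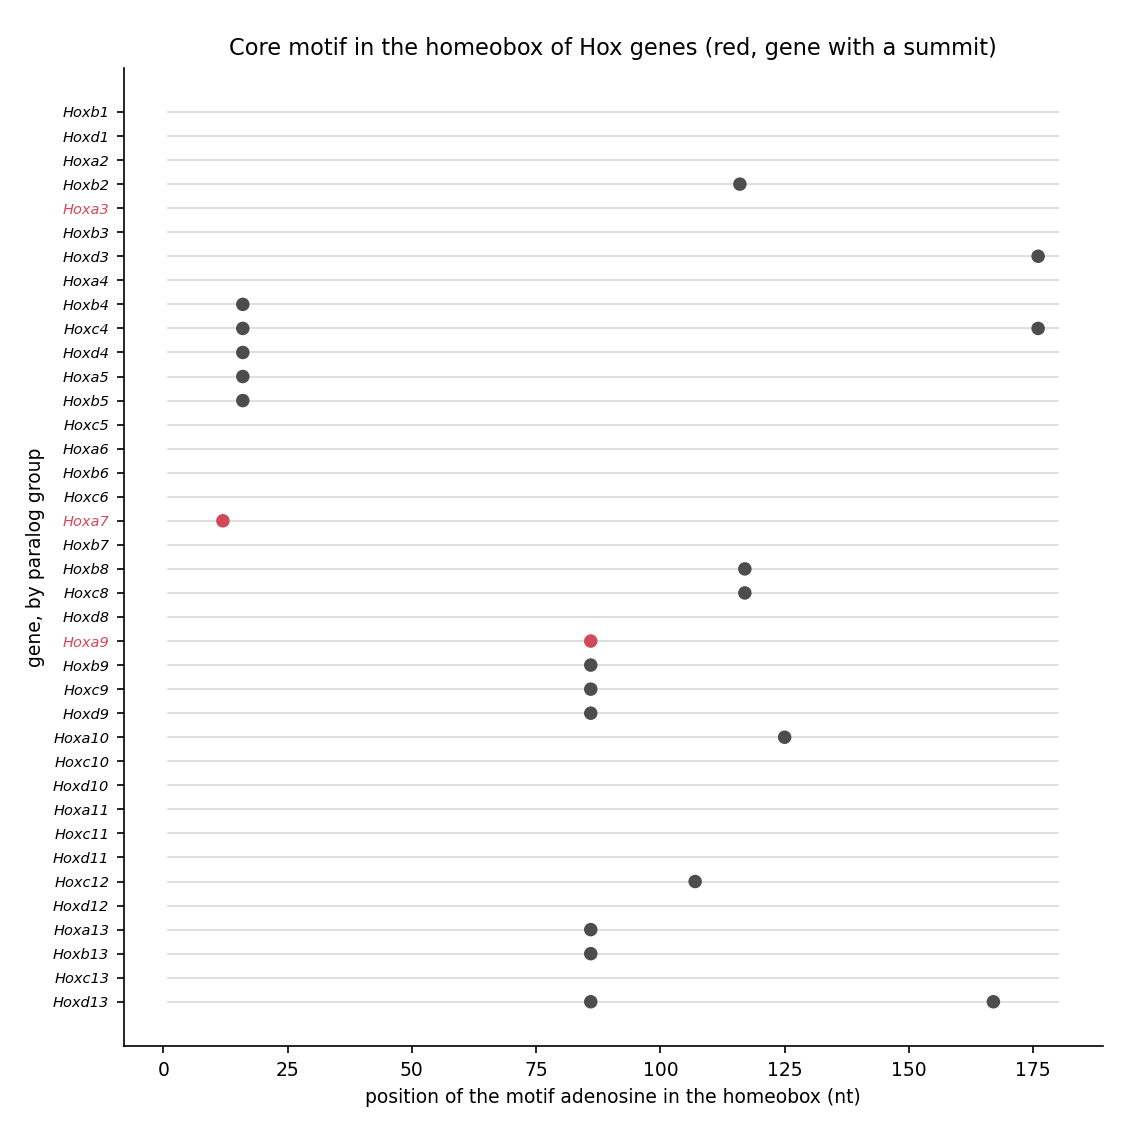
The position in nt of each core motif adenosine in the homeobox is plotted for Hox genes, ordered by paralog group, with the genes that have a summit in red. The 4 genes of group 9 and 3 genes of group 13 share the site at nt 86, and 5 genes of groups 4 and 5 share that at nt 16.

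Some transcripts of homeodomain partners of the Hox proteins had peaks. Of the 9 genes of the Pbx, Meis and Pknox families, which bind DNA together with Hox proteins, 2 had a summit in both replicates, where 30.9% of all protein-coding genes did, so the count is not a result about these partners. Meis1, the partner that acts with Hoxa9 in leukaemia, had 2 peaks per replicate. Its peak at the stop codon was enriched 4.21-fold and 5.40-fold, with 73 and 84 IP reads, and its 5′ UTR peak 6.73-fold and 5.11-fold on 41 and 29 reads. Pbx2, a widely expressed dimerisation partner of Hox proteins, had a 3′ UTR peak with 2.34-fold and 2.05-fold enrichment. A further Pbx2 peak also lay in an exon of Gpsm3 and cannot be given to either gene. Pknox1 had a summit in replicate 2 only, with 2.33-fold enrichment, and Pbx3, Pbx4, Meis2, Meis3 and Pknox2 had none.

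Regulators that keep Hox genes active or silent were looked at next. Of 12 such genes, 6 had a summit in both replicates and 7 in either, where the shares over all protein-coding genes were 30.9% and 37.1%. The difference from those shares was not tested. Kmt2a, the histone methyltransferase that maintains Hox expression, had 9 peaks in each replicate. Its strongest fold in replicate 1 was 5.07, at a peak with 3.97 in replicate 2. In replicate 2 the strongest was 4.46, at another peak, with 4.43 in replicate 1. Men1, a cofactor that joins Kmt2a to its targets, had a peak enriched 9.79-fold and 7.03-fold, with 95 IP reads in each replicate. Psip1, which tethers the same complex to chromatin, had 2.51-fold and 2.83-fold enrichment. Dot1l, the methyltransferase of transcribed Hox chromatin, reached 4.51-fold and 5.57-fold. Among Polycomb genes, which silence Hox loci, Suz12 had a stop codon peak of 2.59-fold and 2.72-fold, and Bmi1 had 4.01-fold and 3.27-fold. A start codon peak of Suz12 was found in replicate 2 only, with 5.33-fold enrichment on 55 IP reads. Eed had a summit in replicate 2 only, at a base that is also in an exon of an overlapping gene. Cdx1, Cdx2 and Cdx4, activators of Hox genes in the embryo, and Ezh2 and Rnf2 had none.

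The cell type was looked at through lists of markers, by whether a summit was found in both replicates, as in 30.9% of all protein-coding genes. Of 8 stem and progenitor markers 6 had one (Cd34, Gata2, Runx1, Tal1, Lmo2 and Gfi1b), while Kit, the gene of the enrichment, and Myb had none. Erythroid markers had one in 2 of 4, macrophage markers in 2 of 4 (Vcam1, and Csf1r where an exon of Hmgxb3 also lies), hepatocyte markers in 1 of 4 (Apoa1, with Alb and Ttr at 0), endothelial markers in 1 of 4 (Kdr) and mesenchymal markers in 1 of 5 (Pdgfrb). The peaks of Kdr (21 and 17 IP reads) and Vcam1 (19 and 14) rested on few reads, where exonic peaks had medians of 68 and 66. Peaks of Pdgfrb (54 and 50), Apoa1 (42 and 54) and Csf1r (112 and 112) rested on more. A peak needs both RNA and m6A, so these counts do not measure the share of each cell type.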

How the data were processed

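m6A-seq was performed by the authors on 2 IP and 2 input samples of c-Kit+ foetal liver cells. Reads were placed on GRCm38 (mm10) with HISAT2, and peaks were called per replicate with MACS2 (version 2.1.1.20160309, nomodel option), so replicates were not pooled. The control library and threshold of the calls are not given in the sources used here. No −log10 q was below 1.31 in replicate 1 or 1.30 in replicate 2. The deposited lists hold, for each peak, the fold enrichment (a ratio of IP to background at the summit, with 1 added to each), the −log10 of the p-value and of the q-value, a score derived from q, which was not used further, and the summit offset.

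Summits were assigned to exons of the GENCODE M21 basic set. For positions and motifs, 1 transcript per gene was used, that of longest coding sequence. IP reads and background were solved from the deposited fold and −log10 p-value. A whole number of IP reads matched 100% of peaks within 0.01 in −log10 p, with IP reads scaled by 0.952 in replicate 2. In the replicate where the control was scaled instead, the background is not a whole number. The solution was tested on simulated data. Library totals, and thus depth, are not known from peak lists. Poisson intervals treat the background as fixed, and they and the binomial intervals cover counting error only, since reads are not independent molecules.

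Hox genes were named, those with a summit with values and the others by name, and list members by their counts and values. Some genes and sequences are not reported here. The genes and lists were chosen with earlier results of these data known. Homeoboxes were found by translating each coding sequence around the homeodomain's conserved tryptophan motif. Sequences are GENCODE M21 transcripts and, for Hoxa6, the RefSeq GRCm38.p6 genome, all from the reference. Python 3.11.15, pandas 2.3.3 and scipy 1.17.1 were used. Alternatives covered the annotation, overlap, thresholds, windows and each replicate left out.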

Additional observations from a re-analysis of the deposited data

How the results depend on the processing

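Of 42 values under alternative settings, 5 moved by more than the margin set for them, which for shares of 7 peaks was a wide binomial interval. The number of Hox genes in both replicates was 2 under all alternatives that used both, except for a minimum fold enrichment of 4, which left 1 gene, Hoxa3, because both Hoxa9 peaks were below 4-fold in replicate 2. With a single replicate it was 2 to 3. The number in either was 4 when any overlap of a peak with an exon counted and with RefSeq exons, both through Hoxa6, and 2 to 3 with a single replicate. The median fold was 3.89 to 4.08 with 1 replicate left out. The share of Hox summits in the coding sequence outside the codon windows, 14.3%, was 0% with windows of 400 nt and 0% to 33.3% with 1 replicate left out, and the share at the stop codon was 33.3% to 75%, since Hoxa3 changed class and Hoxa7 was in replicate 2 only. In a window narrowed to 25 nt, GGAC was found for 57.1% of Hox summits. Among Hox exonic peaks of at least 4-fold enrichment 50% were shared.

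The shares rest on 7 peaks from 3 genes, with recurring peaks counted once per replicate. They also rest on 13 to 23 IP reads at Hoxa3 and Hoxa7, so single peaks set them. No paired analysis was possible because the peak lists exist for IP samples only, which form 1 group, and no result comes from a test.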
